A study of Zea mays with 48 samples.

Results

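This report describes what changed in maize seedling roots over 48 h without a drug. RNA of roots given a mock treatment for 48 h was set against RNA of roots harvested at 0 h, before any treatment time had passed. The members are the 3 libraries of the 48 h mock and the 3 libraries of 0 h, 6 of the 24 libraries in the series, and they hold 12 of its 48 lane samples. They were taken by the column names of the deposited count table, which name the treatment, the time and 1 of the numbers I, II and III.

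All plants were the maize inbred line B73, the line whose genome is the maize reference. Kernels germinated on wet filter paper in glass bottles for 2 days at 30 °C, and the seedlings then grew in the bottles for 7 days at 23 °C under light of 70 µmol per square metre and second. The 48 h mock group received no tunicamycin, and the labels do not describe the mock solution. The 0 h group carries the agent label tunicamycin with a time of 0 h, so its roots had had no time with the drug. The remaining groups received tunicamycin at 5 µg/ml for 3, 6, 12, 24, 36 or 48 h. They were used here to follow the same genes and in the model that estimates the spread. Tunicamycin inhibits N-glycosylation of proteins and so causes stress in the endoplasmic reticulum.

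A seedling root grows by cell division at its tip and by elongation and differentiation of the cells behind it, and over these days the plant passes from the reserves of the kernel to its own photosynthesis and mineral uptake. A root harvested 48 h later is therefore an older organ if treatment began at the same age. The labels give 7 days of growth for both groups, so a greater age of the mock roots is inferred from the times. Such roots would also have lived longer in the same bottle, and they had been through the mock handling. Age, time in the bottle, handling and collection may thus differ together between the 2 groups and cannot be told apart in this design. In RNA of whole roots, fewer cells of a type and less RNA per cell cannot be told apart either.

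The identifiers in the table are of the form Zm00001d plus a number and are not paired with names in the files. None of the 23753 identifiers (0) matched the reference table of 49888 genes. Root, tip and shoot marker genes could therefore not be read, and the tissue label was not tested against them. Genes are described below by level, length, direction and behaviour, and 4 identifiers are named by a rule.

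Labels and libraries have limits that bear on every value. Titles and time entries contradict the library names in 6 of the 12 lane samples: 3 of the mock are entered as 48 h of tunicamycin and 3 of 0 h as 3 h of tunicamycin. The library names, which match the columns of the count table, were followed, and a true exchange of samples was not tested. The titles of all 36 lane samples of the tunicamycin groups also give another group than the library names: 3 h libraries are titled 6 h or 12 h, 12 h libraries 48 h or mock, 24 h libraries 0 h or 3 h, and 48 h libraries 24 h or 36 h. Every level and contrast of those groups below therefore rests on the library names alone. Reads per library ranged from 23314150 to 25489318 in the mock and from 16105148 to 24443472 at 0 h. Each library holds a lane 6 and a lane 7 sample. In the mock the sample index differs between the lanes of one number, and whether 1 library ran on both is not stated. The series names 3 biological and 2 technical replicates per group without saying which seedlings went into which library. The p-values therefore measure a spread between libraries that may be in part technical. In the main edgeR fit that spread was estimated over all 8 groups.

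Within both groups, libraries I and II lay close together and library III lay apart. In a principal component analysis of log2 CPM (read counts scaled to library size, with TMM factors) over the 6 libraries, the first component held 54.1% of the variance and the second 25.9%. On the first component the mock libraries I, II and III lay at -7.75, -5.11 and -89.3, against 48.5, 50.2 and 3.53 for 0 h. On the second they lay at 36.7, 33.01 and -8.02 in the mock, against 0.031, -0.99 and -60.8 at 0 h. The groups did not overlap on the first component, but mock libraries I and II were nearer to library III of 0 h on it than to library III of the mock.

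**Figure D1:**
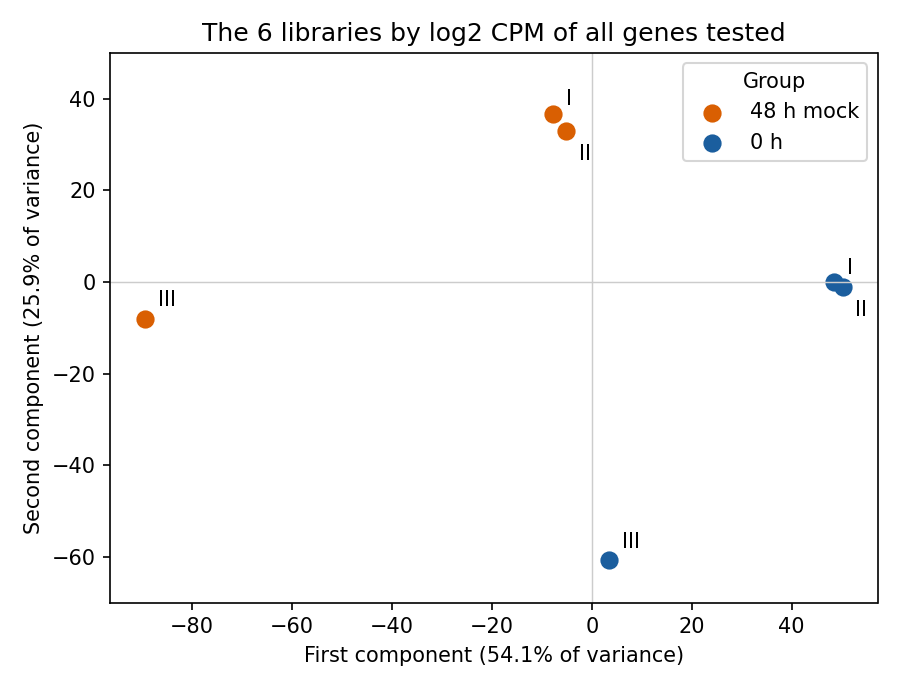
Principal components of log2 CPM over 23753 genes, the first on the x axis and the second on the y axis (component scores), with 1 point per library of the 48 h mock and of 0 h, labelled by library number. Libraries I and II of each group nearly coincide, and library III of each lies apart, at -89.3 on the first component in the mock and at -60.8 on the second at 0 h.

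Counts of libraries I and II differed far less than those of either did from library III. The mean chi-square per gene, which is 1 for sampling noise alone, was 5.18 between mock I and II and 2.22 between 0 h I and II, over genes with at least 50 reads. It was 71.9 and 73.1 between library III and the others in the mock, and 43.04 and 36.9 at 0 h. Libraries I and II were counted separately because the columns number them so. The lanes of 1 library differed by 6.79 to 8.11 in the mock and by 18.7 to 29.9 at 0 h. The lanes of a library thus differed more than libraries I and II did, in both groups, and these counts do not show that I and II are separate biological replicates. If they are not, each group holds 2 samples, for which edgeR called 0 genes, as given below.

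Relative to 0 h, 219 genes were higher and 271 lower in the 48 h mock, at an adjusted p below 0.05 in edgeR's quasi-likelihood test over 23753 genes. That is 0.922% of genes higher, 1.14% lower and 2.06% in all. Most genes stayed near their 0 h level: the middle 50% of all log2 fold changes lay between -0.26 and 0.27, with a median of 0.02. On the log2 scale the risen genes changed by a median of 0.71, with a range of 0.39 to 6.80 and a median standard error of 0.17. The fallen genes changed by a median of -0.90, with a range of -6.50 to -0.34 and a median standard error of 0.20. The falls were thus wider than the rises, with 114 of 271 falls and 67 of 219 rises of at least 2-fold, and 36 falls and 20 rises of at least 4-fold. Among all genes, called or not, 680 were lower and 623 higher by at least 2-fold, and 114 were lower and 114 higher by at least 4-fold, so over all genes the falls were little wider at 2-fold and no wider at 4-fold.

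The number of calls varied with how the libraries were counted and with which groups shared the model. A model of only the 2 groups called 364 genes, and one without the 24 h libraries called 1472. With the library number as a replicate block, 1412 genes were called: 682 genes were higher and 730 lower, and these held all 219 risen and all 271 fallen genes. That fit uses the same libraries and still counts I and II as separate replicates. Its larger number of calls and its overlap with the main calls are therefore no separate support for them. When the reads of libraries I and II were summed, leaving 2 samples a group, edgeR called 0 genes (2693 at an unadjusted p below 0.05, against 5074 with all libraries). Without library III of 0 h, 1328 genes were called (869 higher and 459 lower). Without any one of the other 5 libraries, 23 to 135 were called: 45, 135 and 23 without mock I, II and III, 41 and 23 without 0 h I and II. Without library III of both groups, a setting chosen after seeing the data, 47 genes were higher and 35 lower.

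**Figure D2:**
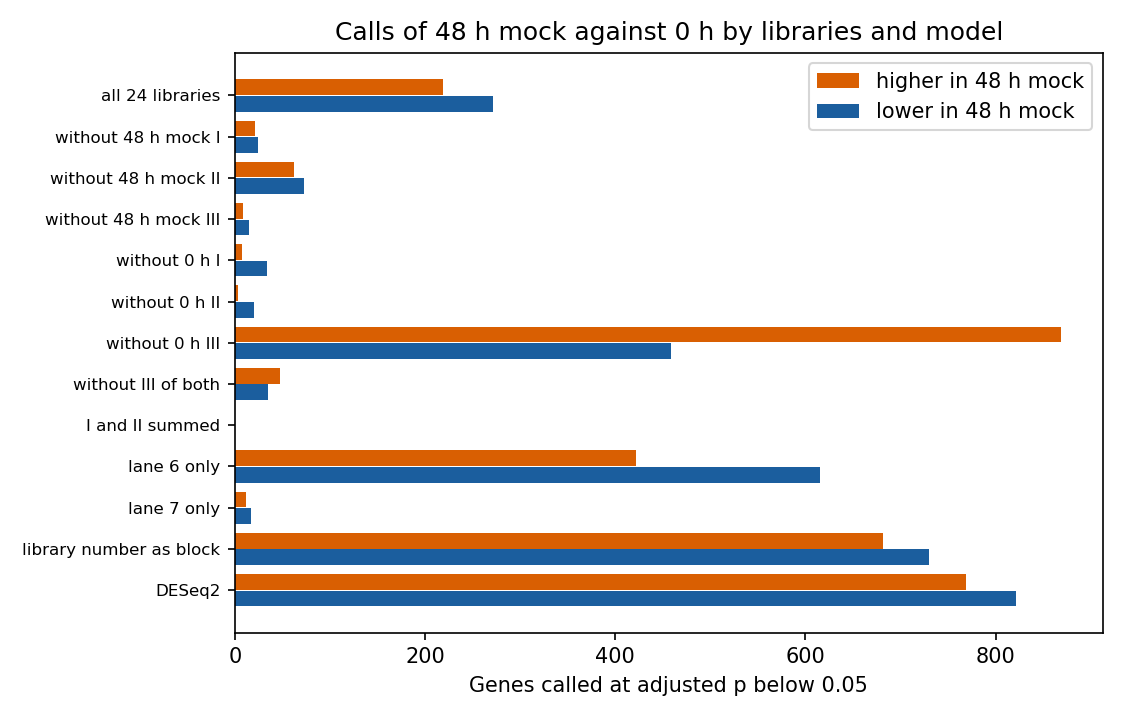
Bars give the number of genes called higher (orange) and lower (blue) in the 48 h mock against 0 h at an adjusted p below 0.05, for all 24 libraries and for other choices of libraries, lanes or model. The count moved between 0 with libraries I and II summed and 1591 with DESeq2.

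Direction held better than the calls did. Across lane 6 alone, lane 7 alone, the block, DESeq2, the summed libraries and the fit without both libraries III, each of the 219 risen genes kept a positive fold change. The 271 fallen genes kept a negative one except for 2 on lane 7. These settings reuse the libraries that chose the genes, so this is a description. Lane 6 called 422 genes higher and 615 lower, and lane 7 called 12 and 17. The median change of the risen genes was 0.82 on lane 6 and 0.60 on lane 7 (log2), and that of the fallen genes -1.09 and -0.64.

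Libraries III describe genes chosen without them, in 1 library per group. Of the 47 genes called higher from libraries I and II alone, 42 were also higher in mock III than in 0 h III, with a median log2 difference of 0.37. Of the 35 genes called lower, 32 were lower there, with a median of -0.77. Over all genes 49.5% were higher in that pair, with a median of -0.0047. Most of the chosen genes thus moved the same way in pair III, by less than in the pairs I and II (medians of 0.92 and -1.24). With 1 library against 1 there is no spread to judge this by, and genes are not independent replicates. The fit that chose them held neither library III of the 48 h mock nor that of 0 h, but did hold the libraries of the other groups.

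Set side by side by library number, the difference of mock and 0 h was wider in libraries III. The SD of the log2 difference over all genes was 0.54, 0.53 and 0.77 in pairs I, II and III, and 5.90%, 5.71% and 12.4% of genes differed at least 2-fold. Differences of pairs I and II correlated at 0.78 across 23753 genes, and those of pair III with pairs I and II at 0.49 and 0.48. These are descriptions across genes, which are not independent replicates. In 135 of 219 risen genes, mock III was the highest mock library, and in 154 of 271 fallen genes it was the lowest. At 0 h the counts were more even: libraries I, II and III were the lowest in 66, 90 and 63 risen genes and the highest in 69, 107 and 95 fallen genes.

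Called genes came from all levels. Over the 8 groups, 978 genes averaged below 1 CPM, and 1 of these rose and 15 fell. Among 7827 genes of 1 to 10 CPM, 41 rose and 86 fell, and among 12793 genes of 10 to 100 CPM, 156 rose and 144 fell. Of 2155 genes above 100 CPM, 21 rose and 26 fell. The share that rose was thus 0.102% in the lowest band and 1.22% between 10 and 100 CPM, whereas the share that fell lay between 1.10% and 1.53% in all 4 bands. Of the risen genes, 0 had at most 3 reads in every 0 h library, and 2 fallen genes had at most 3 reads in every mock library.

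**Figure D3:**
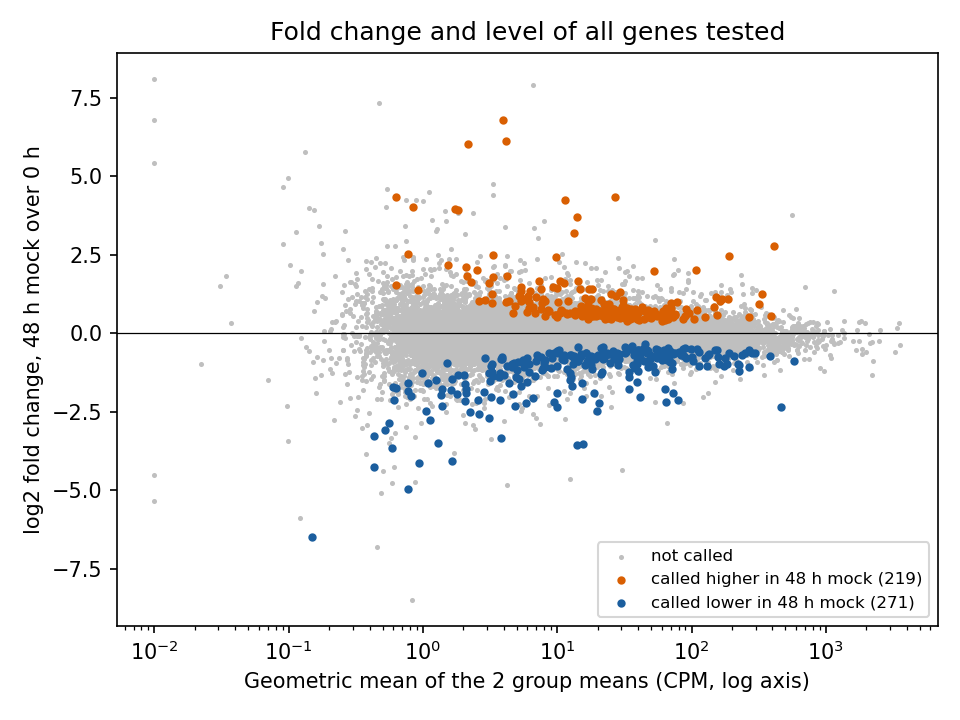
Each point is a gene, with the geometric mean of its 2 group means on the x axis (CPM, log axis) and its log2 fold change of 48 h mock over 0 h on the y axis. The 219 genes called higher are orange, the 271 called lower blue and the others grey, and genes with a group mean of 0 are drawn at the left edge.

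In the RNA pool as a whole, the risen genes summed to 11050, 10777 and 15004 CPM in mock libraries I, II and III, against 6314, 6253 and 6600 CPM at 0 h. The fallen genes summed to 9219, 9810 and 8426 CPM in the mock, against 17161, 17281 and 16872 CPM at 0 h. Neither sum overlapped between the groups, which the choice of these genes fixes in large part, and mock III held both the highest risen and the lowest fallen sum. Measures not used in choosing the genes were compared by library. Genes at 1 CPM or more numbered 22410 ± 71.8 in the mock and 22540 ± 54.1 at 0 h (SD, n = 3 libraries each), and the mock libraries all lay below those of 0 h (exact permutation test, two-sided p = 0.1, the smallest that 3 against 3 allows). The 100 most abundant genes took 11.9% ± 0.184 of reads in the mock and 12.6% ± 0.871 at 0 h (exact permutation test, p = 0.4).

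Fold change moved with gene length. In the shortest of 5 length bands (132 to 1484 bp), the median log2 fold change was -0.13, with 25 risen and 79 fallen among 4750. In the longest (6914 to 128402 bp) it was 0.14, with 42 risen and 22 fallen among 4752. The risen genes had a median length of 4029 bp and the fallen 2498 bp, against 3513 bp for all genes, and fold change and length had a Spearman correlation of 0.213 across 23753 genes. Per library, the longest band stood above the shortest by 0.0079, 0.045 and 0.29 on the log2 scale in mock I, II and III, and by -0.20, -0.27 and 0.079 in 0 h I, II and III (exact permutation test, two-sided p = 0.3). Paired by library number, the mock exceeded 0 h by 0.21, 0.31 and 0.21 in I, II and III, the same direction in all 3 pairs (exact test over sign changes, two-sided p = 0.25, the smallest that 3 pairs allow). Library III lay highest in each group. The part of this trend in the calls was not tested.

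Over the 23753 genes, the 3 mock libraries all lay above the 3 libraries of 0 h in 15.8% and all below in 16.2%. All 219 risen and 270 of 271 fallen genes were of this kind, which the choice of these genes from the same libraries fixes in large part.

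Few calls outlasted the loss of any library. Of the 219 risen genes, 38 lost their call in all 6 fits that left out 1 library and 122 kept it in 1. Of the 271 fallen genes, 46 kept it in none and 150 in 1. There were 2 rises and 11 falls that passed in all 6 fits, with adjusted p up to 0.0478 (edgeR). These 13 genes were also called on lane 6 and with the block, 11 of them without both libraries III and 7 on lane 7. Their log2 fold changes ran from -4.96 to -0.60 and from 1.26 to 2.03. The 11 falls had a median level of 29.9 CPM in the mock and 66.8 CPM at 0 h.

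Zm00001d004921 had the largest rise among the genes whose call held in every fit. Its mock libraries I, II and III stood at 170.1, 183.8 and 296.5 CPM, against 53.5, 56.1 and 50.05 CPM at 0 h. The groups lay far apart, and the 3 libraries of 0 h were within a narrow range. It averaged 217 ± 69.4 CPM in the mock and 53.2 ± 3.03 CPM at 0 h (SD, n = 3 each), a log2 fold change of 2.03 (SE 0.30, adjusted p = 0.00475, edgeR). Adjusted p lay between 0.0101 and 0.0319 in the 6 fits that left out 1 library, and the fold change was 2.01 on lane 6 and 2.05 on lane 7. Summing libraries I and II gave 2.18 and no call (adjusted p = 0.318, edgeR).

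This gene stood above its 0 h level in every treated group. Means were 213.9, 225.9, 289.9, 347.9, 459.1 and 400.5 CPM at 3, 6, 12, 24, 36 and 48 h of tunicamycin. The lowest of these 18 treated libraries held 163.6 CPM, above the highest at 0 h. In 48 h against 3 h of tunicamycin, whose libraries entered its choice only through the shared estimate of spread and scaling, its log2 fold change was 0.91 (SE 0.29), with an adjusted p of 0.107 (edgeR).

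Zm00001d031878 had the largest fall among genes of 5 CPM or more whose call held in every fit. It stood at 4.10, 5.27 and 2.89 CPM in mock libraries I, II and III, against 35.4, 38.7 and 69.7 CPM at 0 h. All mock libraries were low, and library III held the lowest mock and the highest 0 h value. The means were 4.09 ± 1.19 CPM in the mock and 47.9 ± 18.9 CPM at 0 h (SD, n = 3 each), a log2 fold change of -3.55 (SE 0.49, adjusted p = 0.00298, edgeR). The 0 h level differed between lanes, with 550 reads on lane 6 and 217 on lane 7 of library I, and the fold change was -4.08 on lane 6 and -2.50 on lane 7. Leaving out 1 library gave adjusted p between 0.00698 and 0.028, and summing libraries I and II gave 0.242 (edgeR).

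In the treated groups Zm00001d031878 averaged 8.52, 4.97, 11.3, 6.09, 19.7 and 3.56 CPM at 3, 6, 12, 24, 36 and 48 h of tunicamycin. The highest treated library, at 30.4 CPM in library II of 36 h, was still below the lowest at 0 h. At 48 h of tunicamycin its range overlapped that of the mock, with 3.33 to 3.68 CPM against 2.89 to 5.27 CPM.

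Zm00001d036125 had the largest rise among the 207 called genes with at least 5 CPM in one group and no overlap between the groups, and a far less even one. Its mock libraries I, II and III stood at 9.94, 10.02 and 105.8 CPM, against 0.369, 0.381 and 0.364 CPM at 0 h. The groups did not overlap, but mock III stood far above I and II. At 0 h it had 8, 6 and 9 reads, and the fold change rests on those few. The log2 fold change was 6.80 (SE 1.5, adjusted p = 0.0286, edgeR), 4.73 without mock III (adjusted p = 0.127) and 6.28 with the block (adjusted p = 0.00749). The call held in 2 of the 6 fits that left out 1 library.

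With tunicamycin, Zm00001d036125 averaged 14.4, 8.87, 0.991, 1.16, 4.14 and 13.8 CPM at 3, 6, 12, 24, 36 and 48 h. Its levels at 12 h overlapped those of 0 h, with 0.467 and 0.229 CPM in libraries I and II of 12 h. The means at 3 h and 36 h rest largely on library III, which held 36.3 CPM at 3 h beside 2.89 and 3.92 CPM in I and II, and 11.4 CPM at 36 h beside 0.557 and 0.474 CPM. Library III was the highest of the 3 at 3, 12, 36 and 48 h and the lowest at 6 and 24 h.

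Zm00001d044529 had the largest fall among the 232 called genes of that kind. It stood at 0.169, 0.275 and 0.755 CPM in mock libraries I, II and III (4, 7 and 18 reads), against 9.37, 9.59 and 1.54 CPM at 0 h. The groups did not overlap, but library III lay nearest to the other group on both sides. The log2 fold change was -4.07 (SE 1.02, adjusted p = 0.0446, edgeR). The call held in 1 of 6 fits that left out 1 library, with adjusted p up to 0.146, and in the fit with the block (adjusted p = 0.0287). Its means were 1.13, 1.64, 1.86, 4.55, 4.82 and 0.276 CPM at 3, 6, 12, 24, 36 and 48 h of tunicamycin, and all 3 libraries of 48 h tunicamycin lay in the mock's range or below it. The 12 h mean rests on library III, since libraries I, II and III of 12 h held 0.144, 0.137 and 5.29 CPM.

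**Figure D4:**
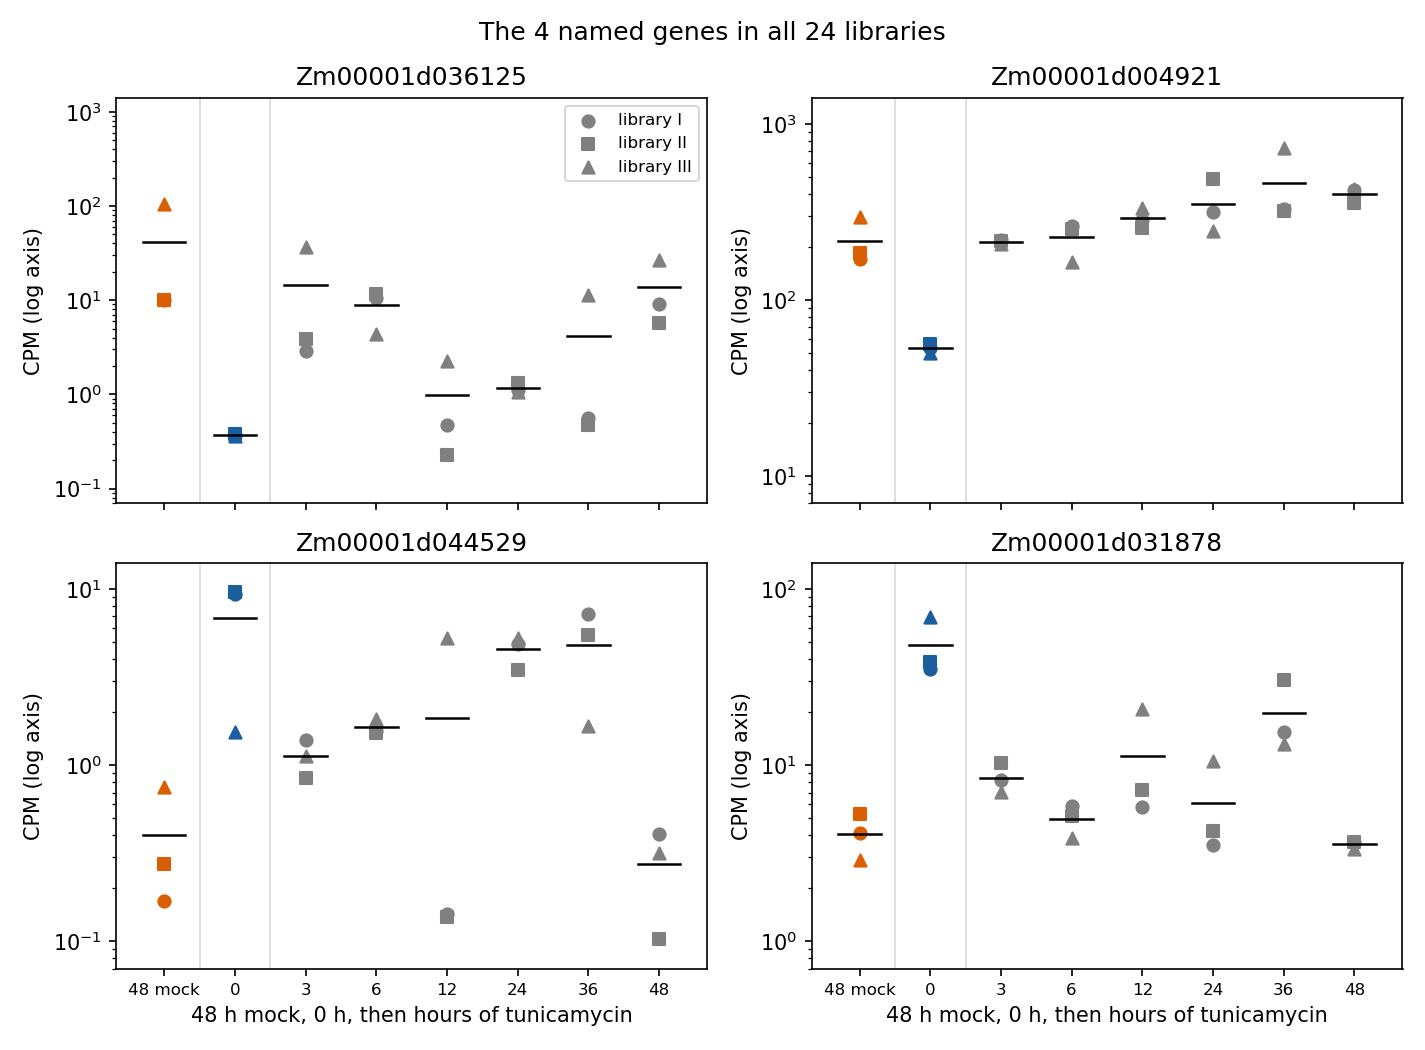
Levels of the 4 named genes (CPM, log axis) in the 48 h mock, at 0 h and at 3 to 48 h of tunicamycin on the x axis, with 1 point per library (shape gives the library number) and a bar at the mean of 3. Zm00001d004921 stays above its 0 h libraries in every other group and Zm00001d031878 below them, whereas mock library III of Zm00001d036125, at 105.8 CPM, lies far above libraries I and II.

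In both lists of called genes, the median in every treated group lay off the 0 h median. The choice of the genes by their 0 h level favours such a shift by itself, so this is a description. The median of the 219 risen genes was 29.3 CPM in the mock, against 17.5 CPM at 0 h. With tunicamycin it was 31.5, 31.8, 23.04, 28.1, 27.8 and 32.2 CPM at 3, 6, 12, 24, 36 and 48 h. At 3 h, 218 of the 219 had a mean above that of 0 h, and 193 lay nearer to the mock than to 0 h on the log2 scale of CPM + 0.5. The 0 h libraries helped to choose these genes, which favours such counts, and the same counts over all genes were not made. The median at 3 h of tunicamycin was thus at or above that of the mock.

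The fallen genes showed the mirror image. Their median was 14.3 CPM in the mock, against 29.3 CPM at 0 h, and 15.7, 12.9, 22.1, 18, 17.7 and 13.5 CPM at 3, 6, 12, 24, 36 and 48 h of tunicamycin. At 3 h, 265 of the 271 were below their 0 h mean and 236 lay nearer to the mock. The choice of the genes bears on these counts in the same way. The 12 h group was the nearest to 0 h in both lists, with 115 of 219 risen (52.5%) and 123 of 271 fallen genes (45.4%) nearer to the mock. The 0 h libraries helped to choose these genes, so a 0 h level that was low or high in those libraries alone cannot be told apart from a change shared by all later groups, and no test was made.

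**Figure D5:**
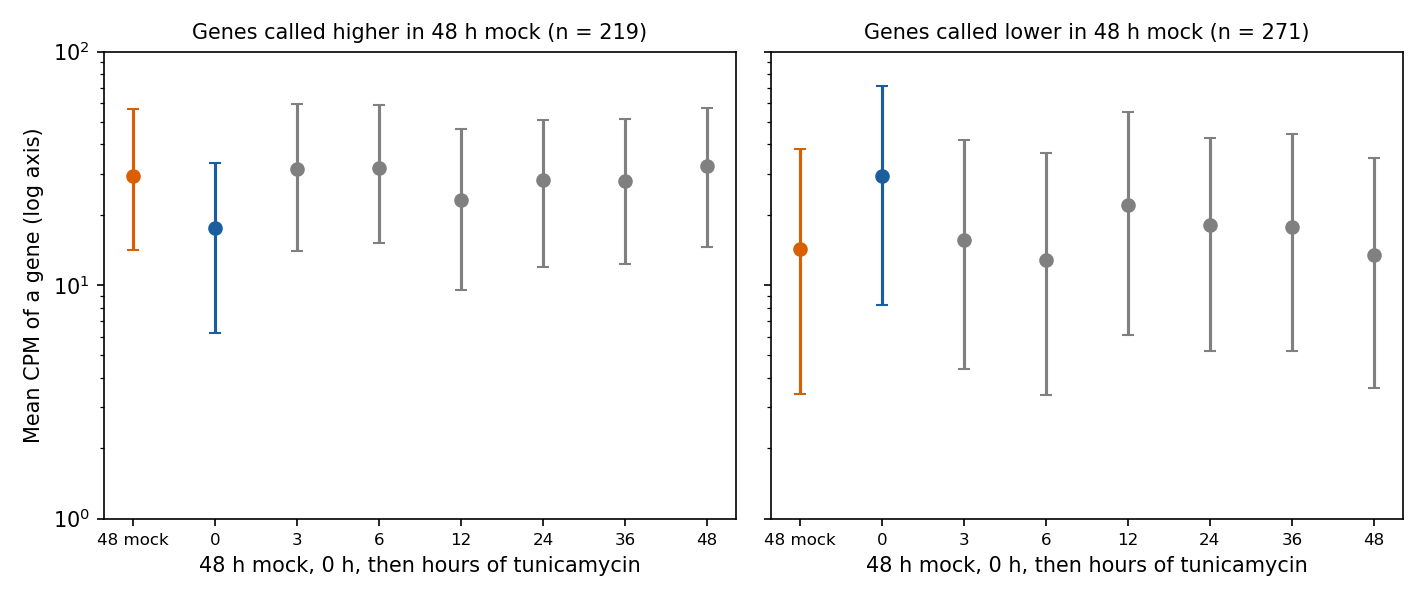
Median (point) and middle 50% (bar) of the group means of the 219 genes called higher (left) and 271 called lower (right) in the 48 h mock against 0 h, in CPM on a log axis, for the mock, 0 h and 3 to 48 h of tunicamycin. In both lists the median at 0 h, 17.5 and 29.3 CPM, lies apart from the other medians, and that of 12 h is nearest. The middle 50% at 0 h overlaps that of every other group, and the 0 h libraries helped to choose the genes.

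A late and an early group that share no library with the mock or with 0 h were then compared, 48 h against 3 h of tunicamycin. Their libraries were in the model that called the genes, where they added to the estimate of spread. Both held the drug, so this contrast joins any greater age with longer treatment. Of the 219 genes risen in the mock, 139 (63.5%) had a positive fold change here, with a median of 0.09 on the log2 scale. Over all genes 51.7% were positive, with a median of 0.01. Of the 271 fallen genes, 188 (69.4%) were negative, with a median of -0.23, where 48.3% of all genes were negative. These shifts were smaller than those between mock and 0 h (medians of 0.71 and -0.90). The latter contrast chose the genes, which widens its medians, so the difference in size is not read further.

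Among the risen genes, 8 were called higher (3.65%) and 2 lower in 48 h against 3 h of tunicamycin, where 0.918% of all genes were called higher and 1.29% lower. Among the fallen genes, 16 were called lower (5.90%) and 0 higher (edgeR, adjusted p below 0.05). By library number, the median of the fallen genes was -0.18, -0.21 and -0.19 in pairs I, II and III, and that of the risen genes was 0.08, -0.0014 and 0.16. The fallen genes were thus lower in all 3 pairs, whereas the risen genes were level in pair II. Without library III of 48 h tunicamycin the median of the risen genes was 0.03, against 0.0052 for all genes, and with library totals alone it was 0.16, against 0.086. Fold change followed length weakly but in the same direction in this contrast, with a Spearman correlation of 0.0677 across 23753 genes. Its median was -0.048 in the shortest length band and 0.034 in the longest. The part of length in the shifts of the risen and fallen genes was not tested.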

How the data were processed

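Root RNA was sequenced from both ends. The submitters' processing notes list STAR, featureCounts and edgeR without versions. Genome build, annotation and strand setting were not found in the labels or headers, so counts of overlapping genes and near-identical copies are uncertain. The deposited table of whole-number read counts holds 24 libraries with their lanes summed, except for 24 h library II, which holds lane 6 alone. The authors also deposited RPKM per lane, from which the reads of each lane and the length of each gene were derived: 100% of lane values came out whole within 0.001 reads and summed to the counts. How a gene's length was defined is not stated. Values reach 128402 bp, so the lengths and length bands are not read as sizes of mature transcripts. The counts of 24 h library II equal its lane 6 reads, so its lane 7 entered neither the counts nor the model.

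The counts were fitted with edgeR 4.0.16 (R 4.3.3), TMM scaling and the quasi-likelihood test, in one model of 8 groups, with Benjamini-Hochberg adjustment over 23753 genes. The low-count filter removed 0 genes. The table lists no gene under 152 reads in all. Standard errors were taken as |log2 fold change| over the square root of F, and log2 CPM used a prior count of 2.

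Deviations from the group mean of same-numbered mock and 0 h libraries correlated at 0.33, 0.32 and 0.44 for I, II and III, all above 0.1, so the numbers were taken as pairs and a blocked fit is given. Mock I with 0 h II, at 0.30, and mock II with 0 h I, at 0.32, were as close. These values therefore do not show which of I and II pairs with which. Libraries I and II were nearly alike, and deviations from a mean of the same libraries depend on each other. The values for I, II and III thus largely repeat the same contrast, that of library III with I and II. They are not separate support for pairing by number. DESeq2 1.42.0, other scalings, filters, single lanes and libraries left out were alternatives.

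Named genes: among called genes with groups that did not overlap and at least 5 CPM in one group (207 higher, 232 lower), the largest fold change and the call kept in most of 6 leave-one-out fits, in each direction. Gene lists planned for annotated identifiers could not be used. The members and lists were chosen with earlier results of these data known. No sequence is printed, since no table of sequences matched the identifiers.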

Additional observations from a re-analysis of the deposited data

How the results depend on the processing

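For 48 h mock against 0 h, 490 genes were called. The total was 1412 with the replicate block, 1591 by DESeq2, 1472 when the model left out the 24 h group, 1037 in lane 6, 29 in lane 7, 0 after summing libraries I and II, and 82 without library III of both groups. Leaving out 1 library gave 23 to 1328. Other scalings, filters and the model of only these groups stayed within a factor of 1.5 (364 to 496), and upper-quartile scaling moved the split to 167 higher and 328 lower.

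For 48 h against 3 h of tunicamycin, 525 genes were called. The total was 1043 with the replicate block, 1252 by DESeq2, 1328 with only these groups in the model, 823 without the 24 h libraries, 306 in lane 6 and 1 after summing libraries I and II (1681 at an unadjusted p below 0.05, edgeR), and leaving out 1 library gave 110 to 600. With library totals alone, 296 were higher and 282 lower, against 218 and 307. The median of the fallen genes there, -0.23, was -0.15 with library totals alone, -0.12 on lane 6, -0.18 on lane 7 and -0.25 to -0.17 without 1 library. That of the risen genes, 0.09, was 0.03 without library III of 48 h tunicamycin and up to 0.13 without another library, 0.06 on lane 6, 0.13 on lane 7 and 0.16 with library totals alone, all within the SD between library pairs (0.081) of the full value. The causes were not tested.

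None of the 4 named genes changed direction in any of these settings. Zm00001d004921 and Zm00001d031878 lost their call only after summing libraries I and II. Both were chosen for keeping the call in the fits that left out a library, so that part was fixed by the choice. The other settings reuse reads of the same libraries.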
